A study of Mus musculus with 12 samples.

Results

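The OHT+ arrays of mouse embryonic stem cell (ESC) lines that carried either WT Ring1B or an E3-defective Ring1B were compared directly, as end states on day 2 after 4-hydroxy-tamoxifen (OHT). All OHT+ arrays of the series were taken, which gave 6 of the 12 arrays: 3 from mutant lines (I53S #1, I53S #4 and I53A #1), 2 from WT lines (WT #1 and WT #3) and 1 from a mock transfectant, which served as the reference without Ring1B. The other 6 arrays came from the same lines before OHT and are used here only to show what a gene did beforehand. Every line was derived from Ring1A-/-; Ring1B fl/fl; Rosa26::CreERT2 ESCs, so that all groups carried the Ring1A deletion, and every OHT+ culture had received 800 nM OHT for 24 h, which activates the Cre recombinase fused to the estrogen receptor and deletes the floxed Ring1B alleles. The WT, I53S and I53A constructs were tagged with Flag and driven by the constitutive CAG promoter of a puromycin-selected vector. Each line is 1 stable transfectant with 1 array per time, so that the p-values below measure the spread between lines, and the mock line has no replicate of its own. The cells were grown on irradiated mouse embryonic fibroblast feeders or on gelatin, and the sources used here do not say which of them applied to which array.

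Ring1A and Ring1B are the catalytic subunits of Polycomb repressive complex 1 (PRC1), the ubiquitin ligase that places monoubiquitin on histone H2A. In ESCs, PRC1 occupies the promoters of developmental regulators such as the *Hox* genes and keeps them silent, and it can also compact chromatin without its ligase activity. The isoleucine that is replaced in I53S and I53A lies in the RING finger surface that binds the E2 enzyme, and the exchange leaves a Ring1B that still enters PRC1 but has lost E3 activity. The comparison therefore asks which genes differ in ESCs that hold Ring1B with and without E3 activity.

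Values are log2 signals of 16432 genes after quantile normalisation of all 12 arrays. On the 6 OHT+ arrays, the median absolute log2 difference over genes was 0.20 between both WT arrays and 0.199 to 0.232 between mutant arrays, and it was 0.248 to 0.266 between a mutant and a WT array. The mock array stood at 0.203 to 0.243 from the mutant arrays and at 0.260 to 0.265 from the WT arrays. None of the arrays was a copy of another. *Rnf2*, the gene of Ring1B, read 7.06 on the mock array, 7.32 and 7.16 on the WT arrays and 7.23, 7.31 and 7.29 on the I53S #1, I53S #4 and I53A #1 arrays. The probe sets averaged for it differed in level. Of these, 1 read 10.57 on the mock array and 11.23 and 11.22 on the WT arrays. On the mutant arrays the same probe set read 10.91, 11.29 and 11.28. Another read 4.71 to 5.12 over the 6 arrays. *Ring1*, the gene of Ring1A, read 5.24 on the mock array, 6.49 and 5.99 on the WT arrays and 5.90, 6.46 and 5.87 on the mutant arrays. The sources used here do not say which parts of *Rnf2* and *Ring1* their probe sets cover, and neither the deletions nor the construct can be checked with them. *Pou5f1*, the gene of Oct3/4, read 12.34 to 12.83 on all 6 arrays, and *Sox2* read 11.51 to 12.14. Of 12 measured embryonic stem cell markers, 6 had every mutant array below both WT arrays, and 0 had every mutant array above them. Over all genes 16.4% had every mutant array below both WT arrays. The median difference of mutant minus WT lines over the 12 markers was -0.30 after OHT and -0.02 before it. The lines differed in Y-linked *Eif2s3y*, which read 6.39 on the mock array, 6.49 and 6.38 on the I53S arrays, 4.08 and 3.82 on the WT arrays and 3.34 on the I53A #1 array.

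Between mutant and WT lines after OHT, 104 genes were higher and 8 genes were lower in the mutant lines (limma, adjusted p from 0.0231 to 0.0483), which is 0.633% and 0.0487% of the genes tested. The genes that were higher included transcription factors of the body plan (*Zic1*, *Tbx1*, *Hmx1*, *Nr2f1*, *Irx3*, *Hoxa10* and *Hoxd1*), germ cell genes (*Rbm46*, *Cpeb1*, *Mei1*) and neuropeptide precursors (*Grp*, *Pyy*, *Penk*). Their differences ran from 0.949 to 2.62 on the log2 scale, or from 1.93-fold to 6.15-fold, and 99 of 104 were over 1. Among the 8 genes that were lower were *Nr0b1*, a nuclear receptor gene of naive ESCs, and *Trh*, the precursor of thyrotropin-releasing hormone. At an unadjusted p under 0.05 the same limma test held 2539 genes, 15.5% of those tested. The calls needed every line: with any 1 of the WT or mutant lines left out, no gene was called in either direction. Of 82 genes followed in these fits, each except *Rnf2* and *Ring1* kept its direction. With the line as a random replicate block over all 12 arrays 185 genes were higher and 46 lower, and with arrays centred on their medians in place of quantile normalisation the counts were 127 and 47. Fibroblast markers, given by array further on, had a median difference of 0.63 between the same arrays with none of 26 called, and their part in the calls was not tested. As the arrays hold whole cultures, a higher level per cell and more cells of a type that express the gene cannot be told apart here or in what follows.

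The arrays were also set against each other without a model. Of all genes, 2920 (17.8%) read higher on every mutant array than on both WT arrays and 2694 (16.4%) read lower. Before OHT the corresponding counts in the same lines were 1671 (10.2%) and 1682 (10.2%). With 3 arrays against 2, an exact permutation test of a single gene cannot give a p below 0.1, and the calls therefore rest on the spread that limma shares over genes.

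The 5 genes with the smallest adjusted p were *Zic1*, *Hmx1*, *Tbx1*, *Mei1* and *Hoxd1*. *Zic1*, a zinc finger gene of the dorsal neural tube, read 3.47 and 3.75 on the WT arrays, 5.81, 6.36 and 6.08 on the I53S #1, I53S #4 and I53A #1 arrays and 7.08 on the mock array. Its mutant arrays were separated from both WT arrays by far more than either group's own spread, with a mean difference of 2.48 ± 0.20 (SE; 5.57-fold; adjusted p = 0.0231, limma). Both WT values of *Zic1* lay under 3.94, the level below which 30% of all probe set values fell, so that its fold depends on a signal that may be no more than background. These values average 2 probe sets. Of these, 1 read 2.66 and 3.05 on the WT arrays against 4.34, 5.28 and 4.61 on the mutant arrays. The other read 4.28 and 4.45 against 7.29, 7.44 and 7.56. *Hmx1*, a homeobox gene of sensory neurons and the eye, read 4.50 and 4.99 on the WT arrays and 7.10, 7.11 and 7.12 on the mutant arrays, and the mock array lay beside the latter at 7.16. *Tbx1*, a T-box gene of the pharyngeal arches, read 4.90 on both WT arrays, 6.85, 7.04 and 7.00 on the mutant arrays and 6.76 on the mock array. In both genes the 3 mutant arrays and the mock array lay close together and far from the WT arrays, with mean differences between mutant and WT lines of 2.37 ± 0.18 for *Hmx1* and 2.06 ± 0.14 for *Tbx1* (SE). With 1 line left out in turn, the difference of *Zic1* lay between 2.34 and 2.61 with an adjusted p of 0.0501 to 0.216 (limma).

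The largest difference among the called genes was that of *Nr2f1*, an orphan nuclear receptor gene of neural tissue. It read 2.96 and 3.53 on the WT arrays, 5.49, 6.04 and 6.07 on the mutant arrays and 5.98 on the mock array, a mean difference of 2.62 ± 0.26 (SE; 6.15-fold; adjusted p = 0.0357, limma). Both WT values again lay under 3.94. The same held for *Bhmt2*, a betaine methyltransferase gene of the methionine cycle, with 3.33 and 3.39 on the WT arrays against 5.22, 6.11 and 6.23 on the mutant arrays and 5.62 on the mock array. In all, 16 of the 104 genes had both WT arrays at or under that level, among them *Zic1*, *Rbm46*, *Grp*, *Lhx8*, *Ebf3*, *Alx1* and *Slc6a11*, and their folds carry the same limit. *Tlcd4*, a gene of a membrane protein with a lipid-sensing domain, belonged to them, with 3.23 and 3.20 on the WT arrays and 4.79, 5.40 and 5.87 on the mutant arrays.

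**Figure D1:**
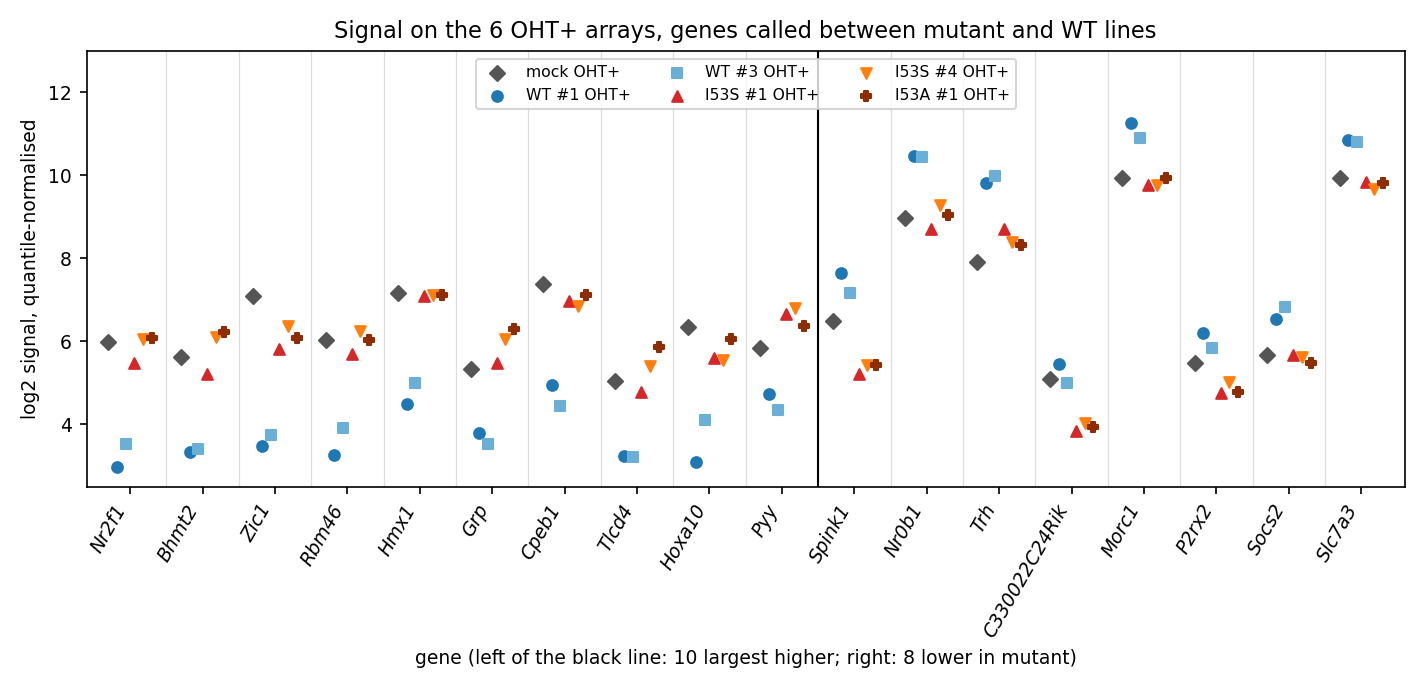
Log2 signal (vertical axis, after quantile normalisation) on each of the 6 OHT+ arrays for the 10 genes with the largest higher call and the 8 genes called lower in mutant than in WT lines, 1 symbol per array. For each of these genes the 3 mutant arrays lie on the same side of both WT arrays, and levels are to be compared within a gene only. *Hmx1* shows the tightest mutant group, 7.10 to 7.12.

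Promoter sequences of the called genes were read from RefSeq (GRCm38.p6), in windows of 300 bases with 250 before the transcription start and 50 after it. Of the 104 genes, 76 had 1 or more windows, 88 in all. They were rich in CG dinucleotides, with a median of 24.5 per window against 17 over the windows of all genes tested and 7 over all mouse windows in the table. The E-box letters CACGTG, which read the same on both strands and are recognised by factors of the Myc and Max family, occurred in 15.9% of them against 9.09% over the genes tested. They are shown here in capitals for *Rbm46*, *Hoxd1* and *Zic1*, the 3 genes among the called ones in the germ cell, *Hox* and *Zic* lists whose last 100 bases before the start held them, each 5′ to 3′ on the strand of the gene.
*Rbm46*, chr3:82876484-82876583, minus strand: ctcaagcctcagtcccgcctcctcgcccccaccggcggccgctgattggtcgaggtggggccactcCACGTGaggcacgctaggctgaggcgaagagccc
*Hoxd1*, chr2:74762880-74762979, plus strand: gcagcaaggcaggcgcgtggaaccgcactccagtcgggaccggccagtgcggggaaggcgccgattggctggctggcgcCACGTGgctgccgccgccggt
*Zic1*, chr9:91365769-91365868, minus strand: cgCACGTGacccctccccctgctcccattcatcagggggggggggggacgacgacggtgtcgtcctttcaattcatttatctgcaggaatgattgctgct
The first C of the E-box stood at -34 in *Rbm46*, -21 in *Hoxd1* and -98 in *Zic1*, counted from the start. The 300-base windows of the 3 genes held 25, 29 and 31 CG dinucleotides. Among the wider lists, E-boxes were found in 46.7% of windows of germ granule and piRNA pathway genes and in 33.3% of those of meiotic genes. These counts describe the letters, and no binding was measured on these arrays.

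The *Hox* genes, which specify position along the body axis and are classical Polycomb targets, contributed 6 of the genes called higher and none of those called lower, out of 30 measured of 39 in the list. Over all genes, 0.633% were called higher and 0.0487% lower. On 23 of the 30 (76.7%, against 17.8% over all genes) every mutant array read above both WT arrays, and the median difference was 0.64 against 0.00 over all genes. The list had a median difference of 0.14 between the same lines before OHT. By cluster, the median was 1.40 over 7 measured *Hoxd* genes, 0.63 over 7 *Hoxa* genes, 0.57 over 7 *Hoxc* genes and 0.44 over 9 *Hoxb* genes. The 6 called genes were divided between *Hoxd*, with 4, and *Hoxa*, with 2. The difference between clusters was not tested.

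*Hoxd1*, the gene at the 3′ end of its cluster, read 4.55 and 4.45 on the WT arrays, 6.31, 6.35 and 6.47 on the mutant arrays and 6.28 on the mock array. With 1.88 ± 0.14 (SE; adjusted p = 0.0231, limma) its difference was the most precise of the family, and the mock array lay just under the mutant arrays. At the opposite end, *Hoxd13*, which patterns the digits, read 5.20 and 5.07 on the WT arrays, 6.51, 6.43 and 6.65 on the mutant arrays and 6.81 on the mock array. *Hoxd8* read 4.79 and 4.80 against 6.18, 6.15 and 6.68, with the mock array at 6.78. *Hoxd9* read 5.91 and 5.95 against 7.39, 7.07 and 7.53, with the mock array at 8.0. In each of these genes the I53A #1 array was the highest of the mutant arrays, yet no gene was called between I53S and I53A lines.

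*Hoxa10* and *Hoxa11*, which pattern the reproductive tract and the limb, were the called members of the *Hoxa* cluster. *Hoxa10* read 3.09 and 4.11 on the WT arrays, 5.59, 5.56 and 6.05 on the mutant arrays and 6.35 on the mock array. Its WT arrays differed by more than any mutant pair, and its difference of 2.13 ± 0.32 (SE) moved between 1.62 and 2.64 when 1 line was left out. *Hoxa11* read 3.94 and 4.11 against 5.21, 5.53 and 5.93, with the mock array at 6.33. *Hoxa9* read 5.55 on both WT arrays and 6.86, 6.28 and 6.82 on the mutant arrays, but did not pass (1.10 ± 0.21, adjusted p = 0.0787, limma). Its probe sets disagreed: 1 of them read 5.91 to 6.46 on all 6 arrays, and the other read 5.06 and 5.03 on the WT arrays against 7.29, 6.64 and 7.19 on the mutant arrays.

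The mock line stood higher still on this list. On 25 of 30 *Hox* genes (83.3%, against 24.4% over all genes) the mock array read above all 3 mutant arrays, and the median difference of mock minus WT was 1.22. No single gene passed the test of mock minus mutant lines, in which the mock class holds 1 array. *Hoxb13*, a gene of the posterior spinal cord and the prostate, showed the widest gap in the list, with 7.13 on the mock array against 5.05, 5.79 and 5.70 on the mutant arrays and 4.84 and 4.55 on the WT arrays. The mutant and mock comparisons share the WT arrays, and their values are given side by side for that reason only.

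**Figure D2:**
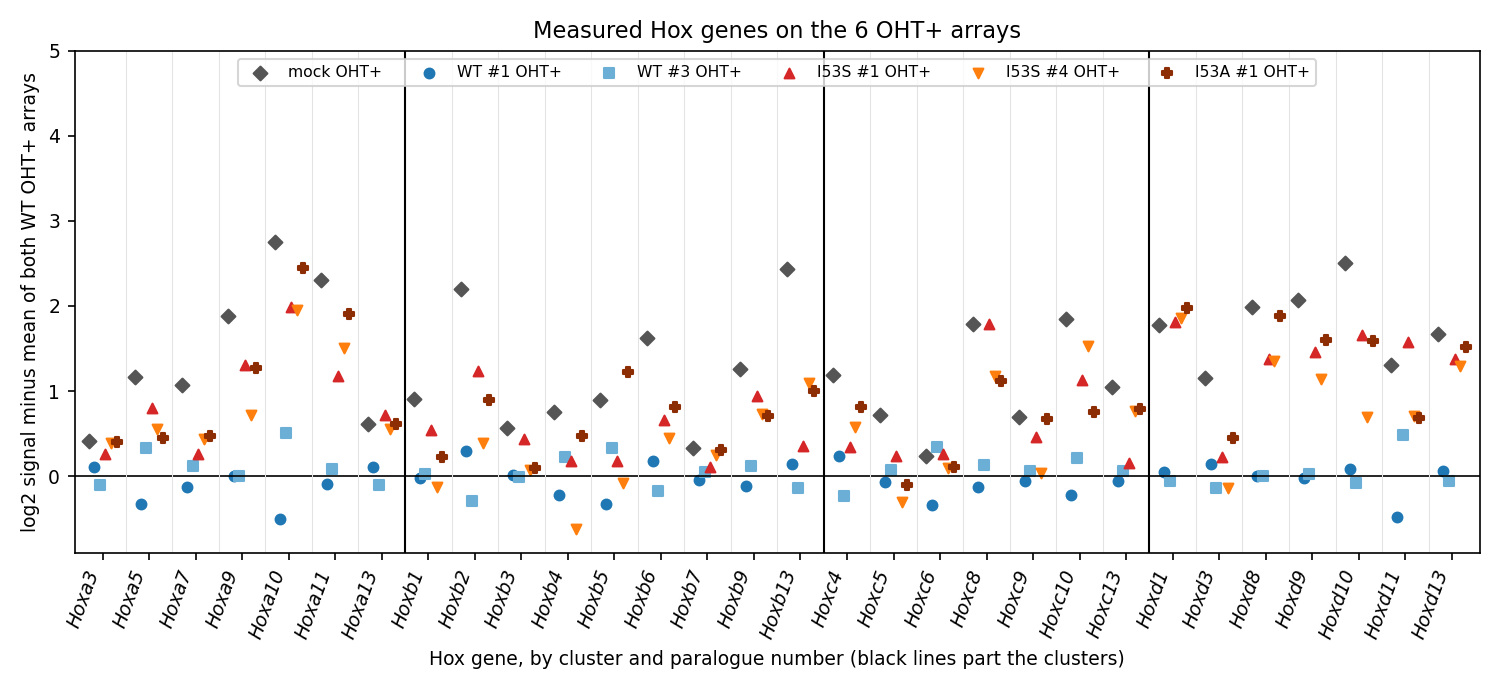
Log2 signal minus the mean of both WT OHT+ arrays (vertical axis) for the 30 measured *Hox* genes, ordered by cluster and paralogue number, with 1 symbol for each of the 6 OHT+ arrays. The mutant arrays lie above both WT arrays in 23 genes, and the mock array lies above all mutant arrays in 25.

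Other homeobox and body plan regulators were called in the same direction. Among 29 measured *Zic*, *Pax*, T-box and *Irx* genes, 5 were called higher (0.633% over all genes), 15 (51.7%, against 17.8%) had every mutant array above both WT arrays, and the median difference was 0.38 against -0.09 before OHT. The 3 Iroquois genes called, which pattern heart and neural tube, were *Irx1*, *Irx2* and *Irx3*. *Irx3* read 5.96 and 6.04 on the WT arrays, 8.14, 7.51 and 7.82 on the mutant arrays and 8.29 on the mock array. *Irx1* read 4.50 and 4.71 against 5.72, 6.24 and 6.19, and here the mock array fell below the mutant arrays at 5.63. *Irx2* behaved alike, at 6.26 and 6.48 against 7.30, 7.41 and 7.46, with 7.27 on the mock array. On this list the mock array lay above all mutant arrays in 8 genes (27.6%, against 24.4% over all genes) and below all of them in 11 (37.9%, against 29.7%). *Tbx18*, a gene of the sinus node and the ureter, stood just outside the threshold with 4.25 and 4.79 against 6.0, 6.24 and 5.73 (adjusted p = 0.0513, limma). *Pax3*, a neural crest and muscle gene, had 3 probe sets whose order of arrays differed, and its mean difference of 0.83 ± 0.16 (SE) did not pass (adjusted p = 0.0771, limma).

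Of 58 measured LIM, NK-like, Dlx, Msx and further homeobox genes, 4 were called higher (0.633% over all genes) and none lower, and 28 (48.3%, against 17.8%) had every mutant array above both WT arrays, with a median difference of 0.40. Here the mock array lay above all mutant arrays in 23 genes (39.7%, against 24.4%) and below all of them in 8 (13.8%, against 29.7%). Beside *Hmx1* these were *Barx1*, a gene of the stomach and the jaw, *Alx1* of the facial mesenchyme, and *Lhx8* of cholinergic forebrain neurons. *Barx1* read 5.54 and 5.11 on the WT arrays, 6.61, 6.93 and 6.87 on the mutant arrays and 6.44 on the mock array. *Alx1* read 3.65 and 3.88 against 4.96, 4.87 and 5.08, with 5.37 on the mock array. *Lhx8* had WT arrays near the floor, at 3.09 and 2.99, and mutant arrays at 4.14, 4.66 and 4.71. Of the neurogenic factors 1 of 29 was called higher (0.633% over all genes), *Ebf3*, with 3.60 and 3.53 against 4.82, 4.67 and 5.16. In 9 genes of that list (31.0%, against 17.8%) every mutant array read above both WT arrays, and its median was 0.20. None of 33 forkhead, *Sox* and *Gata* genes was called (over all genes 0.633% were called higher). In 9 of the 33 (27.3%, against 17.8%) every mutant array read above both WT arrays, and their median was 0.19. Calls were made in some families of somatic regulators and not in others, and the difference between families was not tested.

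Retinoid carriers accompanied *Nr2f1*. *Crabp1*, which binds retinoic acid in the cytosol, read 8.48 and 8.71 on the WT arrays, 10.24, 9.97 and 10.37 on the mutant arrays and 10.19 on the mock array, a difference of 1.60 ± 0.18 (SE; 3.02-fold; adjusted p = 0.0421, limma). *Rbp4*, which carries retinol in plasma, read 6.63 and 6.84 against 7.85, 7.80 and 8.07, with 7.56 on the mock array. Unlike *Nr2f1*, both carriers were well above the low level on all arrays. Of the 20 measured genes of the list 3 were called higher (0.633% over all genes). In 8 (40.0%, against 17.8% over all genes) every mutant array read above both WT arrays, and the median was 0.16.

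Germ cell genes gave 4 calls in 2 lists, with more genes just outside the threshold. Of 28 measured germ granule and piRNA pathway genes, 1 was called higher (0.633% over all genes), and 18 (64.3%, against 17.8%) had every mutant array above both WT arrays and the median difference was 0.57, against -0.06 before OHT. Of 29 meiotic genes, 3 were called (0.633% over all genes), 15 (51.7%, against 17.8%) had every mutant array above both WT arrays, and the median was 0.50 against 0.15 before OHT. *Rbm46*, an RNA-binding protein gene needed for meiotic entry, read 3.26 and 3.91 on the WT arrays, 5.69, 6.25 and 6.03 on the mutant arrays and 6.02 on the mock array. Its difference was 2.40 ± 0.25 (SE; 5.29-fold over WT arrays that were both under 3.94; adjusted p = 0.0421, limma), with -0.03 between the same lines before OHT. *Ddx4*, the Vasa helicase of germ granules, read 8.15 and 8.88 against 9.83, 10.12 and 10.20, and missed the threshold at an adjusted p of 0.0526 (limma). Similarly close were *Tdrkh*, a Tudor domain gene of the piRNA pathway, at 0.0506, and *Tex15*, which also acts in that pathway, at 0.0524.

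Among the meiotic genes, *Mei1*, which is needed for meiotic DNA breaks, read 4.01 and 4.11 on the WT arrays and 5.75, 5.85 and 5.87 on the mutant arrays. The mock array lay between them at 5.15. *Cpeb1*, a regulator of mRNA polyadenylation in oocytes, read 4.96 and 4.45 against 6.96, 6.84 and 7.10, with 7.38 on the mock array. *Figla*, a transcription factor gene of oocytes, read 4.36 and 4.29 against 5.53, 5.61 and 5.87, with 5.56 on the mock array. Less even were *Sycp2*, of the chromosome axis, with 3.42 and 4.04 against 5.21, 6.12 and 5.64, and *Tex101*, with 5.01 and 4.45 against 6.15, 7.70 and 7.23, and neither passed. The mock array was above all mutant arrays in 3 of the 29 meiotic genes (10.3%) and below all of them in 10 (34.5%), against 24.4% and 29.7% over all genes. *Hsf5*, a heat shock factor gene of spermatocytes that is in none of the lists and was chosen after its values were seen, read 4.43 and 4.80 on the WT arrays, 6.10, 6.77 and 6.77 on the mutant arrays and 5.98 on the mock array.

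Among 32 measured precursors of secreted peptides, 4 were called higher (0.633% over all genes) and 1 lower (0.0487%). In 15 (46.9%, against 17.8%) every mutant array read above both WT arrays, and the median was 0.22. *Grp*, gastrin-releasing peptide, read 3.78 and 3.53 on the WT arrays, 5.49, 6.04 and 6.29 on the mutant arrays and 5.32 on the mock array. *Pyy*, peptide YY of gut endocrine cells, read 4.73 and 4.34 against 6.65, 6.81 and 6.37, with 5.84 on the mock array. *Penk*, proenkephalin, read 6.07 and 6.36 against 7.84, 7.85 and 7.68, with 7.47 on the mock array. *Nppc*, the precursor of C-type natriuretic peptide, read 4.36 and 4.34 against 5.59, 5.43 and 5.58, and the mock array stayed near the WT arrays at 4.59. In all 4 genes the mock array read below every mutant array, but they were picked for their height in the mutant lines. Over the 32 genes the mock array lay below all mutant arrays in 12 (37.5%, against 29.7% over all genes). It lay above all of them in 6 (18.8%, against 24.4%). *Tac1*, the substance P precursor, had a larger difference of 2.66 ± 0.43 (SE) that did not pass (adjusted p = 0.0526, limma). *Trh* was the member called lower, with 9.81 and 9.98 on the WT arrays, 8.70, 8.38 and 8.31 on the mutant arrays and 7.90 on the mock array.

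Genes of antigen presentation on MHC class I were split. Of 19 measured, 2 were called higher (0.633% over all genes) and 9 (47.4%, against 17.8%) had every mutant array above both WT arrays, with a median of 0.21. *Psmb8*, an immunoproteasome subunit, read 5.58 and 5.49 on the WT arrays and 6.71, 6.77 and 7.21 on the mutant arrays after OHT (1.36 ± 0.19 SE, adjusted p = 0.0455, limma). Before OHT the order was the opposite, with 6.33 and 6.38 on the WT arrays and 4.96, 4.71 and 5.76 on the mutant arrays. *H2-Bl*, a class I gene of a family with closely similar members, read 6.42 and 6.36 against 7.49, 7.53 and 7.32, and signal from other members on its probe set cannot be told apart. *H2-K1*, *Psmb9* and *B2m* had differences of 0.97, 0.90 and 1.04, none of which passed.

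Among lineage genes outside the embryo proper, 2 of 25 primitive endoderm genes were called higher (0.633% over all genes). Every mutant array read above both WT arrays in 12 of the 25 (48.0%, against 17.8% over all genes). *Amn*, a receptor component of the visceral endoderm, read 6.75 and 6.33 on the WT arrays and 8.03, 8.11 and 8.24 on the mutant arrays, and *P4ha2*, a collagen prolyl hydroxylase gene, read 7.85 and 8.17 against 9.55, 9.35 and 9.23. This list had a median difference of 0.51 after OHT and of 0.38 in the same lines before OHT, and the median difference of the OHT change was 0.27. None of 24 trophectoderm genes passed (over all genes 0.633% were called higher), *Eomes* coming nearest with 6.90 and 6.99 against 7.79, 8.17 and 7.81 (adjusted p = 0.0649, limma). In 7 of the 24 (29.2%, against 17.8% over all genes) every mutant array read above both WT arrays, and the median was 0.37. *Cdx2*, a master regulator of trophectoderm, read 4.31 and 4.08 on the WT arrays, 4.84, 4.89 and 4.69 on the mutant arrays and 5.72 on the mock array. Cardiac genes gave 2 calls of 37 (0.633% over all genes), *Myh6*, a heavy chain of heart myosin, with a difference of 1.13 ± 0.15, and *Myl7*, an atrial light chain, with 1.18 ± 0.18 (SE). The list as a whole had a median of 0.09, and 5 of its genes (13.5%, against 17.8%) had every mutant array above both WT arrays. From the Wnt pathway, the secreted inhibitor gene *Sfrp5* and the agonist gene *Rspo1* were called, 2 of 53 (0.633% over all genes), with differences of 1.07 and 0.95. Every mutant array read above both WT arrays in 17 of the 53 (32.1%, against 17.8%). Of 50 potassium channel genes 1 was called higher (0.633% over all genes), *Kcnk6*, with a difference of 1.10. In 13 of the 50 every mutant array read above both WT arrays (17.8% over all genes), and the median was 0.14.

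Pluripotency genes gave 1 call, and most of the core factors read slightly lower. Of 22 core pluripotency and Dppa genes none was called, yet 16 (72.7%, against 16.4% over all genes) had every mutant array below both WT arrays, and the median difference was -0.37 after OHT and -0.06 before it. *Pou5f1* read 12.59 and 12.83 on the WT arrays and 12.45, 12.34 and 12.46 on the mutant arrays, a difference of -0.29 ± 0.15 (SE; adjusted p = 0.414, limma). *Lin28a*, an inhibitor of let-7 maturation, read 8.77 and 8.34 against 7.61, 7.80 and 7.76, and *Foxd3* read 7.86 and 7.85 against 6.66, 6.95 and 7.24, and neither passed. Of 21 naive pluripotency genes 9 (42.9%, against 16.4%) had every mutant array below both WT arrays, and 1 was called lower (0.0487% over all genes). This was *Nr0b1*, the gene of Dax1, which read 10.46 and 10.45 on the WT arrays, 8.71, 9.28 and 9.04 on the mutant arrays and 8.97 on the mock array (-1.44 ± 0.20 SE, adjusted p = 0.0455, limma). Before OHT it had read 10.05 to 10.51 on all 5 arrays of WT and mutant lines.

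The other genes called lower were few and of mixed function. *Spink1*, a trypsin inhibitor gene, was lowest in mutant relative to WT lines, with 7.65 and 7.17 against 5.21, 5.43 and 5.43 (-2.06 ± 0.19 SE, adjusted p = 0.033, limma), but -1.54 of it was present before OHT. *Morc1*, which acts in germ cell transposon silencing, read 11.25 and 10.89 against 9.77, 9.77 and 9.93. *Socs2*, a feedback inhibitor of cytokine signalling, read 6.53 and 6.82 against 5.67, 5.61 and 5.46. *Slc7a3*, a cationic amino acid transporter gene, read 10.84 and 10.81 against 9.83, 9.67 and 9.81. For these 3 genes the mock array lay between 0.08 and 0.16 above the mutant mean. *P2rx2*, an ATP-gated channel gene, and the unnamed transcript *C330022C24Rik* completed the 8, at -1.17 and -1.29, and the mock array read within the WT range for the latter, at 5.10.

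Genes of the Polycomb and chromatin machinery were not called in either direction (over all genes 0.633% were called higher and 0.0487% lower). None passed among 13 canonical PRC1 subunits, 25 variant PRC1 subunits, 14 PRC2 genes, 18 H2A deubiquitinase genes and 17 genes of DNA methylation, whose medians lay between -0.25 and 0.06. *Phc2*, a polyhomeotic subunit, came nearest with 7.76 and 7.82 on the WT arrays and 8.64, 8.78 and 8.57 on the mutant arrays (adjusted p = 0.058, limma). *Bcor*, a subunit of a variant PRC1, read 7.10 and 7.34 against 7.83, 7.95 and 7.88, and 8.58 on the mock array. *Dnmt3a*, a de novo DNA methyltransferase, read 8.26 and 8.03 against 7.51, 7.46 and 7.26. The housekeeping genes had a median difference of 0.03 over 10 genes.

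No gene was called either in lists of growth, signalling and state (over all genes 0.633% were called higher and 0.0487% lower). The median difference was 0.47 over 31 imprinted genes, 0.50 over 21 mesendoderm and Nodal pathway genes, 0.37 over 28 genes of the epithelial and mesenchymal states and 0.32 over 39 BMP and TGF-beta genes. It was 0.31 over 11 inhibitors of the cell cycle, 0.15 over 43 immediate early and ERK output genes, 0.01 over 24 p53 targets and -0.07 over 41 genes of replication and mitosis. Of 20 genes that had been chosen for PCR, 1 was called higher, *Zic1* (0.633% over all genes). In 11 (55.0%, against 17.8% over all genes) every mutant array read above both WT arrays, and the median was 0.30. As the set was chosen within the study, its direction is no independent evidence.

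The genes called after OHT were also looked up in the same lines before OHT. Of the 104 genes, 90 were within 0.5 of each other in the mean of mutant and WT lines (over all genes this held for 93.9%), 11 were already higher in the mutant lines by more than that and 3 were lower. Every mutant array already read above both WT arrays in 20 of them and below in 9, against 10.2% each over all genes. Their median was 0.11 before OHT and 1.35 after it, the latter being the value they were chosen on. No gene passed the test of mutant minus WT lines before OHT (limma, smallest adjusted p 0.829, with 862 genes or 5.25% at an unadjusted p under 0.05). Subtracting each line's level before OHT gave a median difference of the OHT change of 1.32 over the 104 genes, and 102 exceeded 0.5, values that contain the OHT+ difference the genes were chosen on. In that test too no gene passed (smallest adjusted p 0.088, 2066 genes or 12.6% unadjusted). *Pyy* had the largest positive difference before OHT among the genes called higher, 0.97, and *Psmb8* the largest negative one, -1.21.

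**Figure D3:**
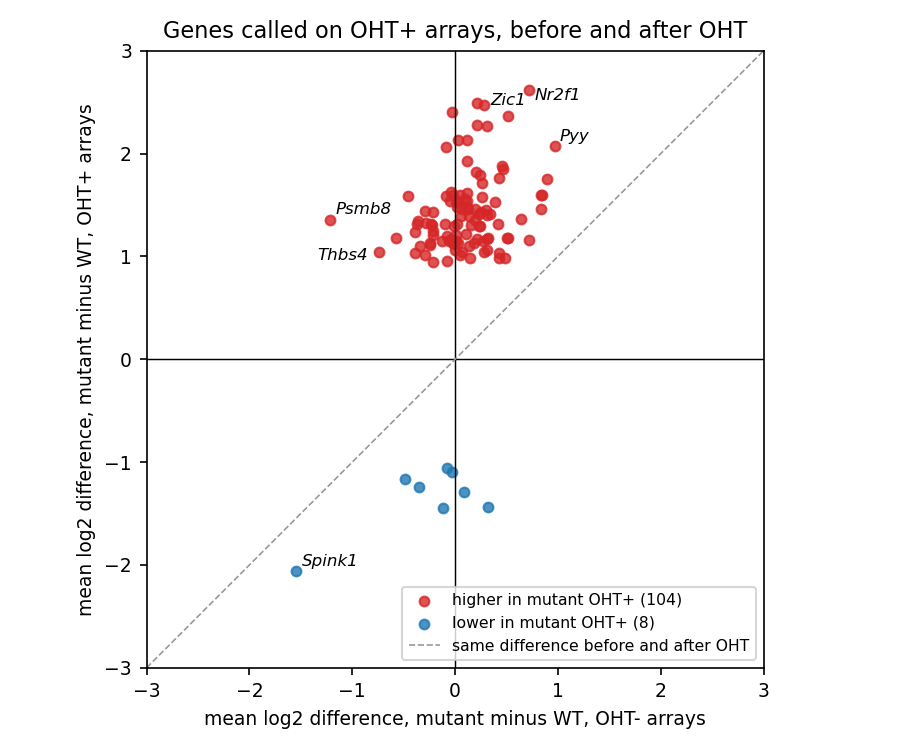
Mean log2 difference of mutant minus WT lines on the OHT- arrays (horizontal axis) and on the OHT+ arrays (vertical axis) for the 112 called genes, 1 point per gene, with the dashed line where both are equal. The genes were chosen on the vertical axis. Along the horizontal axis 97 of them lie within 0.5 of 0, and *Psmb8* and *Spink1* lie farthest out at -1.21 and -1.54.

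The mock line was set beside the mutant lines for the same genes. Over the 104 genes the median above the WT mean was 1.26 on the I53S #1 array, 1.34 on the I53S #4 array, 1.44 on the I53A #1 array and 1.17 on the mock array. The mock array read above both WT arrays in 104 of 104 (over all genes in 35.2%), above all mutant arrays in 20, within their range in 27 and below all of them in 57. As these genes were picked for their height in the mutant lines over the same WT arrays, the position of the mock array above WT and below mutant lines is in part set by that choice, and nothing is read from these counts. Where the mock array stayed close to WT, the gap was plain in *Nppc* and in *Slc6a11*, a GABA transporter gene chosen after its values were seen. *Slc6a11* read 3.65 and 3.82 on the WT arrays, 3.86 on the mock array and 5.03, 4.87 and 5.25 on the mutant arrays.

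Over all genes, no gene passed the test of mock minus WT lines (limma, smallest adjusted p 0.0864, 2081 genes or 12.7% at an unadjusted p under 0.05) or of mock minus mutant lines (smallest adjusted p 0.379, 1228 genes or 7.47%). Both tests set 1 mock array against the others and take its spread from them. With the line as a replicate block, 42 genes were higher and 5 lower for mock minus WT lines. Among the largest gaps of mock below mutant lines were *Art3*, an ADP-ribosyltransferase gene, with 3.41 on the mock array and 5.14, 5.99 and 5.29 on the mutant arrays, and *Neu3*, a sialidase gene, with 3.94 against 5.10, 5.73 and 6.03. *Cdkn1c*, an imprinted inhibitor of the cell cycle, read 10.17 on the mock array, 8.69, 8.98 and 9.06 on the mutant arrays and 8.15 and 8.07 on the WT arrays.

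The exchange for serine and the exchange for alanine gave no gene that passed the test of I53S against I53A lines (limma, smallest adjusted p 0.232, 868 genes or 5.28% at an unadjusted p under 0.05). That test rests on 2 lines against 1 and cannot show that both exchanges act alike. The gene with the smallest p was *Eif2s3y*, with a difference of 3.10 ± 0.21 (SE). *Tagln*, a smooth muscle and fibroblast gene, also belonged to the 5 smallest, with 11.99 and 11.36 on the I53S arrays and 9.49 on the I53A #1 array. *Ankrd1*, a gene of mechanically stressed cells, read 7.62 and 7.41 against 5.07. The I53S lines differed from each other in 12 genes of the early cleavage embryo, with a median against the WT mean of 0.80 on the I53S #1 array, -1.06 on the I53S #4 array and -0.07 on the I53A #1 array.

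Fibroblast markers, which feeder cells would bring, were unequal between the arrays. None of 26 measured markers was called, and 11 (42.3%, against 17.8% over all genes) had every mutant array above both WT arrays. In 21 of them the difference exceeded 0.5 (80.8%, against 9.49% over all genes). The median difference was 0.63 after OHT and 0.48 before it. Against the WT mean, the median of the markers was 1.44 on the mock array, 1.38 on the I53S #1 array, 0.58 on the I53S #4 array and 0.20 on the I53A #1 array, with the WT arrays at -0.17 and 0.17. Their mean level was 6.23 and 6.66 on the WT arrays, 7.72, 7.03 and 6.59 on the mutant arrays and 7.73 on the mock array. On the I53A #1 array the median was 0.77 for the *Hox* list, 0.72 for the germ granule list and 0.78 for the meiotic list. It was 0.27 there for primitive endoderm genes, 0.20 for imprinted genes, 0.08 for BMP and TGF-beta genes and 0.05 for epithelial and mesenchymal genes. How these medians relate to the markers was not tested. Collagen genes, of which none of 36 was called, had a median of 0.48 and 0.49 on the I53S arrays and 0.29 on the I53A #1 array.

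**Figure D4:**
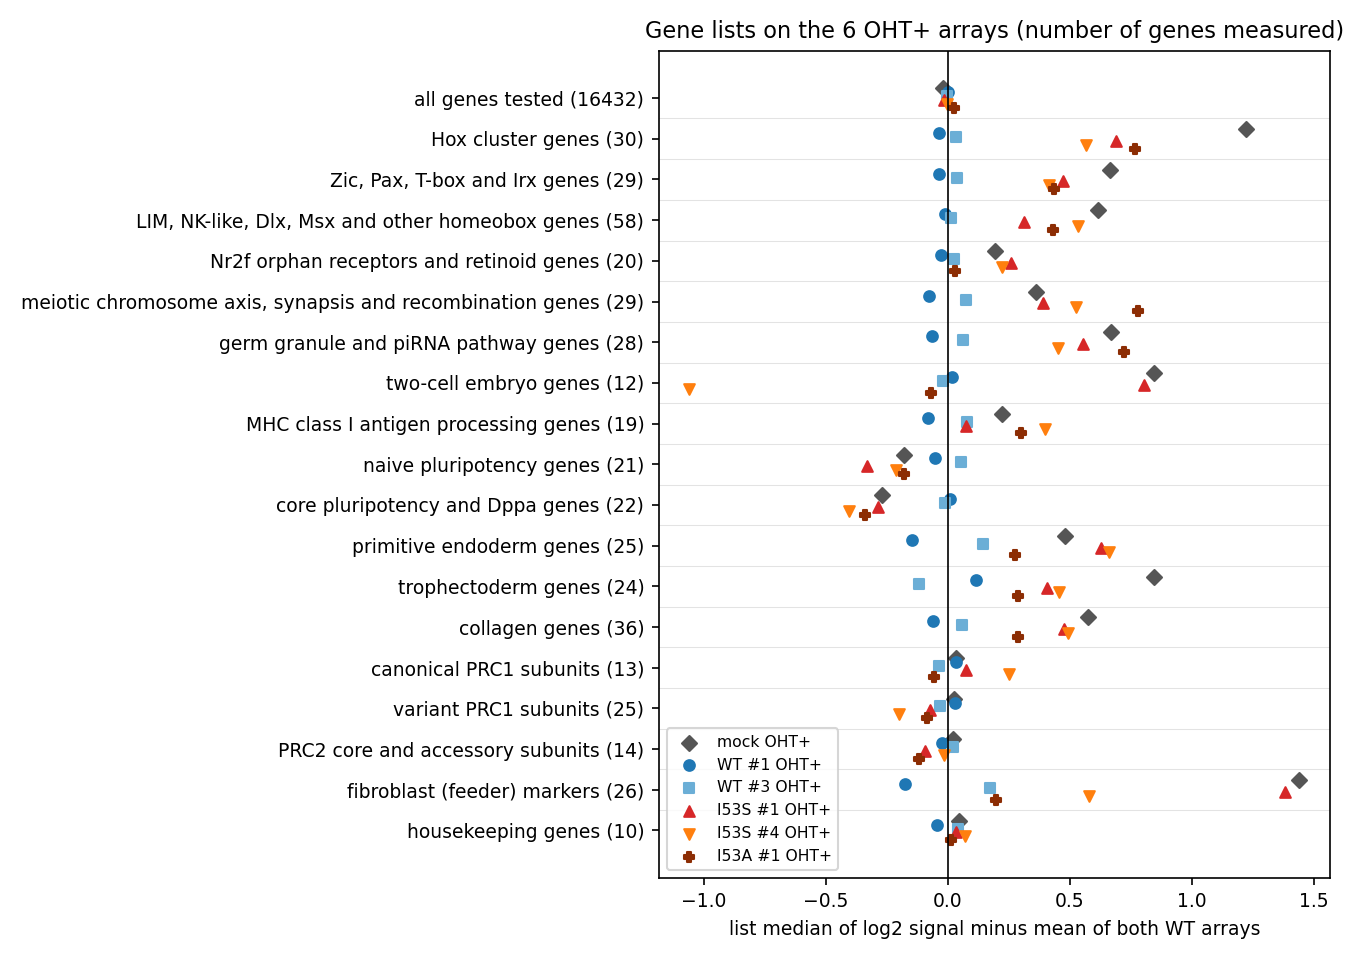
Median over each gene list of the log2 signal minus the mean of both WT OHT+ arrays (horizontal axis), 1 symbol per array, with the number of measured genes of each list in parentheses. The developmental and germ cell lists lie to the right for all 3 mutant arrays and the mock array, core pluripotency genes lie to the left, and the fibroblast markers spread from 0.20 on the I53A #1 array to 1.44 on the mock array.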

How the data were processed

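The values deposited by the authors are log2 signals for each probe set of each array. According to the sample labels they were made with RMA in Affymetrix Expression Console, of unstated version. The supporting methods of the study name MAS5 signals and quantile normalisation instead, and the series and the study differ in the name of the array, which held 45101 probe sets. The deposited values did not share a distribution (medians per array from 4.66 to 5.67). They were therefore quantile-normalised here over all 12 arrays. Control probe sets (64) were left out. Of the rest, 34945 carried 1 gene symbol, 932 several and 9160 none in the platform annotation, and 18032 of 18193 symbols were found in RefSeq. Probe sets were kept where the highest signal exceeded 3.94, under which 30% of values lay (30374 with 1 symbol), and averaged per gene, which gave 16432 genes. Averaged probe sets can differ, as stated for *Rnf2*, *Zic1*, *Hoxa9* and *Pax3*.

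Groups follow the sample labels. The OHT+ arrays were fitted with limma 3.58.1 in R 4.3.3 (lmFit and eBayes, two-sided, 3 residual and 3.81 prior degrees of freedom), with means for mock, WT and mutant lines, and the OHT change with the line as a block. Calls were made at an adjusted p under 0.05 (Benjamini-Hochberg, all genes tested). Counts of genes with every array of a group above or below every array of the other used no model. SE is that of limma. Precision is limited by the number of arrays. The script was tested on simulated data.

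The genes named are the 10 largest called differences each way (filled by the smallest p where fewer were called), up to 3 members of each list with the smallest p, the genes measured by PCR in the study, *Rnf2*, the 5 smallest p for I53S minus I53A, and the 5 largest gaps each way of mock minus mutant lines. Not all of them are spelled out. The groups, the genes and the 39 lists were chosen with earlier results of these data known. Alternatives were values as deposited, arrays centred on their medians, quantile normalisation within the fitted arrays, the probe set with the highest mean, no filter, a filter on the mean, trended and robust priors, a difference over 0.5, the line as a random block, the I53S lines alone and each line left out. As a check of pairing, deviations from the class mean correlated at 0.27 to 0.427 between the 2 arrays of a line.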

Additional observations from a re-analysis of the deposited data

Results flagged for a closer look

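Only the genes chosen by the rule of the preceding section were searched. Those are given for which every mutant array lay on 1 side of both WT arrays before OHT and on the other side after OHT. The number given is how far the OHT change of the mutant lines exceeded that of the WT lines on the log2 scale. It was 2.57 for *Psmb8*, 2.05 for *Amn*, 1.61 for *Cdkn1c*, 1.43 for *Hoxb13*, 1.39 for *Myh3*, 1.16 for *Rspo1*, 1.03 for *Fgf8* and 0.85 for *Pax9*. In the limma test of this difference, which has the line as a block, none passed, with adjusted p from 0.088 for *Psmb8*, *Amn* and *Cdkn1c* to 0.229 for *Pax9*. *Psmb8* had the widest reversal, from -1.21 before OHT to 1.36 after it. *Hoxb13* had read 4.84 and 4.61 on the WT arrays and 4.27, 3.86 and 4.20 on the mutant arrays before OHT. Outside that choice, further called genes reversed in the same way. These were *Thbs4* (1.79), *Nppc* (1.76), *Slit2* (1.62), *Wt1* (1.47), *Mboat1* (1.42) and *Irx2* (1.32).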

How the results depend on the processing

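*Thbs4*, *Slit2*, *Wt1* and *Mboat1* were not followed over the settings. The direction of the mutant minus WT difference on OHT+ arrays was kept by 82 genes that include all others with values in the text, in each setting that tested them (under the filter on the mean only 56 of them), with the exception of *Rnf2* and *Ring1*. That of *Ring1*, -0.16, became 0.085 with values as deposited and -0.413 to 0.086 with 1 line left out. For *Rnf2* the main value of 0.04 became -0.116 with arrays centred on their medians, -0.065 with the probe set of highest mean, -0.026 with the filter on the mean, and -0.045 to 0.116 with 1 line left out. The counts of calls depended on the setting. With 1 line left out they ranged from 0 to 104 higher and from 0 to 8 lower, being 0 without WT #1, WT #3, I53S #1, I53S #4 or I53A #1 (also 0 and 0 with the I53S lines alone) and complete without the mock line. These fits hold fewer arrays. Against 104 higher and 8 lower there were 463 and 19 with values as deposited (104 and 6 of them shared, and a median over all genes of 0.15), 127 and 47 with arrays centred on their medians (95 and 8 shared, median -0.16, so that the higher share fell with this scaling), 158 and 44 with the filter on the mean, and 280 and 68 with trended and robust priors. With the line as a random replicate block over all 12 arrays the counts were 185 and 46 (85 and 7 shared). The remaining settings gave 96 to 106 higher and 8 to 10 lower. Of the 48 called genes among these 82, 46 kept the call as deposited, 44 centred, 44 with the block, 42 without a filter and 37 with the probe set of highest mean, and under the filter on the mean all 30 that it tested.

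For mock minus WT lines, where no gene was called, there were 18 higher and 16 lower as deposited (median over all genes -0.37), 1 higher when centred, 1 higher with the probe set of highest mean, 5 higher with the filter on the mean, 22 and 2 with trended and robust priors, and 42 and 5 with the replicate block. Values as deposited also gave 82 lower for mock minus mutant lines (median -0.52), 116 higher for I53S minus I53A (median 0.30) and 41 higher for mutant minus WT lines before OHT (median 0.28). For the OHT change, which has the line as a block, there were 42 and 5 with the filter on the mean and 194 and 78 with trended and robust priors, and without the replicate block it stayed at 0 and 0. The causes were not tested. Levels under 3.94 limit what can be said of genes that are low in WT lines.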
